A study of Mus musculus with 15 samples.

Results

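The data compare bone marrow-derived macrophages (BMDMs) held for 72 h under RANKL with BMDMs held for 72 h under LPS. The comparison takes 6 of the 15 RNA-seq samples of the series, 3 per group, and its members were chosen by their sample labels and not by any measured value. BMDMs of wild-type C57BL/6 mice were grown in macrophage colony-stimulating factor (M-CSF) and then given M-CSF with either receptor activator of NF-κB ligand (RANKL) or lipopolysaccharide (LPS) for 3 days. The methods of the study state 100 ng/mL for RANKL, 100 ng/mL for LPS and 50 ng/mL for M-CSF. They describe 4 days in M-CSF before the stimulus, whereas the labels give 3 days. The remaining groups, also 3 samples each, are control cells in M-CSF without either stimulus and cells given RANKL or LPS for 4 h. No group kept in M-CSF alone up to 72 h was analysed here, so between control and the 72 h groups the stimulus and the time in culture cannot be told apart. The labels do not say whether replicates of a group came from separate animals or cultures, and p-values therefore measure the spread between these samples, which may be technical.

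RANKL is a ligand of the TNF superfamily that binds the receptor RANK, encoded by *Tnfrsf11a*, on cells of the monocyte and macrophage lineage. Through TRAF6, NF-κB, AP-1 and the transcription factor NFATc1 it drives these precursors to fuse into osteoclasts, the multinucleated cells that dissolve bone with acid and digest its matrix with proteases. LPS, a component of the outer membrane of Gram-negative bacteria, is bound by CD14 and by the complex of TLR4 with MD-2, and signals through MyD88 and TRIF to NF-κB, MAP kinases and interferon regulatory factors. Macrophages under LPS produce cytokines, chemokines and antimicrobial proteins. Both stimuli use NF-κB, and the comparison addresses what distinguishes the long-term state of the same precursor cells under each of them.

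The values are FPKM, fragment counts scaled for the length of each gene and for the total of each sample. Differences are given as log2(FPKM + 0.1) in RANKL minus LPS, so that a positive value is higher in RANKL and a negative value is higher in LPS. A difference was called at an adjusted p under 0.05 (limma, Benjamini-Hochberg over the 11743 genes tested) together with a fold change above 1.5 or below 0.66. The 0.1 added to each value shrinks the difference of genes near 0 in a group. Fragments on the listed genes numbered 18306184 to 19983869 in the 6 samples, so that depth differed little between groups.

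The cells of both groups carried the macrophage markers that their label implies. *Cd68*, a lysosomal glycoprotein of macrophages, was at 1087, 1161 and 1241 FPKM in the RANKL samples and at 1145, 1159 and 1282 FPKM in the LPS samples. *Csf1r*, the receptor of M-CSF, was at 339, 297 and 339 FPKM under RANKL and 209.9, 235 and 261 FPKM under LPS, and *Mertk*, a receptor for apoptotic cells, at 33.9, 22.2 and 18.8 FPKM under RANKL and 32.4, 24.1 and 33.2 FPKM under LPS. None of these 3 genes was called, whereas on the list of macrophage genes described below 9 of 28 were higher in RANKL and 6 in LPS. The third LPS sample stood apart from the other two. Over the 9486 genes that averaged 1 FPKM or more, its log2 levels had a Pearson correlation of 0.942 and 0.954 with the other LPS samples, which correlated with each other at 0.988. Its correlation with the RANKL samples was 0.868 to 0.893, against 0.805 to 0.829 for the other LPS samples. The RANKL samples correlated with each other at 0.966 to 0.980. Among 2354 genes that differed more than 2-fold between the RANKL mean and the mean of LPS replicates 1 and 2, the third LPS sample lay a median 0.347 of the way toward RANKL (quartiles 0.140 and 0.571). For named genes that lost their call, or whose called difference moved by over 1.5-fold, when LPS replicate 3 was left out, the value without it is therefore also given.

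Of the genes tested, 3761 (32%) were called. The called genes divided into 2440 (20.8%) higher in RANKL and 1321 (11.2%) higher in LPS. The median difference of the genes higher in RANKL was 1.34, and 637 of them differed more than 4-fold and 116 more than 16-fold. The genes higher in LPS had a median of -1.03, with 203 beyond 4-fold and 31 beyond 16-fold. Without LPS replicate 3, 4658 genes (39.7%) were called, 2696 (23%) higher in RANKL and 1962 (16.7%) higher in LPS. Of the first set of calls, 3555 (94.5%) were called again in the same direction and 0 in the opposite direction, and they formed 76.3% of the second set. The median gene lay 0.11 above 0 in the deposited FPKM. When each sample was centred on its median gene, 1954 genes were higher in RANKL and 1922 higher in LPS (33% called in all), so the share of calls that favour RANKL went from 64.9% to 50.4%. The excess of genes higher in RANKL thus depended on the scaling, and centring lowered every difference at 72 h by 0.14. In 6051 genes (51.5%) the 3 values of a group all lay on one side of the 3 of the other group. A two-sided exact permutation test of 3 samples against 3 cannot give a p below 0.1. It gave that value for each of the 6 genes at the top of the list, as it must for genes selected without overlap.

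**Figure D1:**
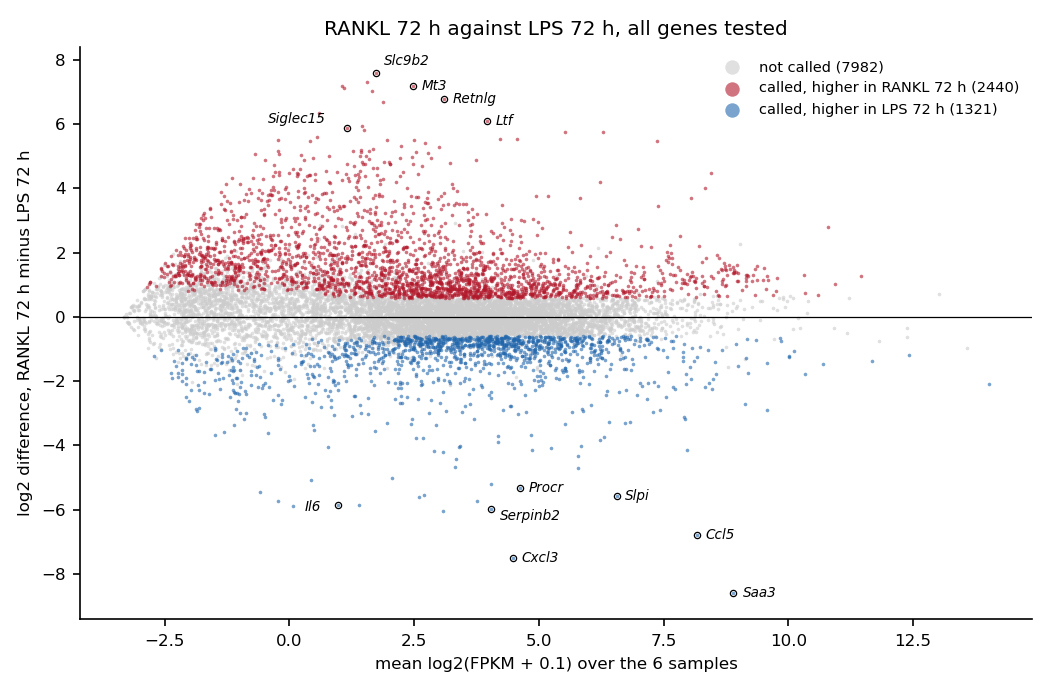
Each point is a gene, with its mean log2(FPKM + 0.1) over the 6 samples on the x axis and the log2 difference of RANKL 72 h minus LPS 72 h on the y axis. Red points are the 2440 genes called higher in RANKL, blue points the 1321 called higher in LPS and grey points the genes not called, with the largest differences at 7.58 for *Slc9b2* and at -8.59 for *Saa3*.

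The largest differences in favour of RANKL belonged to genes of the resorbing and fusing osteoclast, with several genes known from other settings. *Slc9b2*, the sodium-proton exchanger NHA2 of osteoclasts, was at 48.1, 26.8 and 75.1 FPKM in the RANKL samples and at 0.113, 0.131 and 0.181 FPKM in the LPS samples. That difference of 7.58 (SE 0.37, adjusted p = 0.000172) was the largest in this direction, and it was 7.70 without LPS replicate 3. *Dcstamp*, required for the fusion of osteoclast precursors, was at 32.1, 22.4 and 70.9 FPKM under RANKL and 0.137, 0.118 and 0.146 FPKM under LPS, a difference of 7.31 (SE 0.40, adjusted p = 0.000218). *Mt3*, a metal-binding metallothionein best known from brain, was at 57.2, 40.2 and 129.9 FPKM under RANKL and 0.262, 0.632 and 0.279 FPKM under LPS (difference 7.17, SE 0.47, adjusted p = 0.000273). These genes were selected from those whose groups do not overlap. In each the lowest RANKL sample was far above the highest LPS sample, and the third LPS sample lay with the other two. Also among the 12 largest at an average of 5 FPKM or more were *Cyp2s1*, a cytochrome P450 (7.17), *Kbtbd11*, a Kelch-domain protein (7.11), the receptors *Oscar* (7.01) and *Siglec15* (5.89), *Ocstamp*, a fusion protein related to DC-STAMP (6.70), *Mst1r*, the receptor of macrophage-stimulating protein (6.35), and *Gpr183*, a receptor for oxysterols that guides osteoclast precursors (5.94). The other two, *Retnlg* (6.78, and 7.69 without LPS replicate 3) and *Ltf* (6.10, and 7.50), are expressed by neutrophils and are described with the neutrophil markers. All 12 were called under each of the 18 alternative settings.

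Among genes that averaged 5 FPKM or more, the largest differences in favour of LPS were in acute-phase proteins, chemokines, cytokines and protease inhibitors. They were likewise selected from genes whose groups do not overlap. *Saa3*, an acute-phase serum amyloid made by macrophages, was at 6740.3, 8836 and 13573 FPKM in the LPS samples and at 25.9, 24.3 and 22.1 FPKM in the RANKL samples. With a difference of -8.59 (SE 0.26, adjusted p = 3.42e-05) it exceeded every other gene of either direction in size, and it was highest in the third LPS sample. *Cxcl3*, a chemokine that attracts neutrophils, was at 472, 464 and 124 FPKM under LPS and 1.61, 1.77 and 1.31 FPKM under RANKL, a difference of -7.51 (SE 0.49, adjusted p = 0.000280) that was -8.15 without LPS replicate 3. *Ccl5*, which attracts T cells and monocytes, was at 4067, 3705 and 1858 FPKM under LPS and 35.9, 35.1 and 16.7 FPKM under RANKL (difference -6.78, SE 0.39, adjusted p = 0.000244). For *Cxcl3* and *Ccl5* the third LPS sample was the lowest of its group, yet stayed far above all RANKL samples. The cytokines *Il1a* (-6.04, and -6.83 without LPS replicate 3), *Il6* (-5.86, and -6.64) and *Il1b* (-5.72) followed, with the chemokines *Cxcl1* (-5.55) and *Cxcl2* (-5.20). The protease inhibitors *Serpinb2* (-5.99, and -6.57 without that sample), *Stfa3* (-5.59) and *Slpi* (-5.57) and *Procr*, the receptor of protein C (-5.32), completed the set. *Stfa3* belongs to a family of near-identical stefin genes, between which fragments may have been divided. These 12 genes were likewise called under all 18 alternatives.

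**Figure D2:**
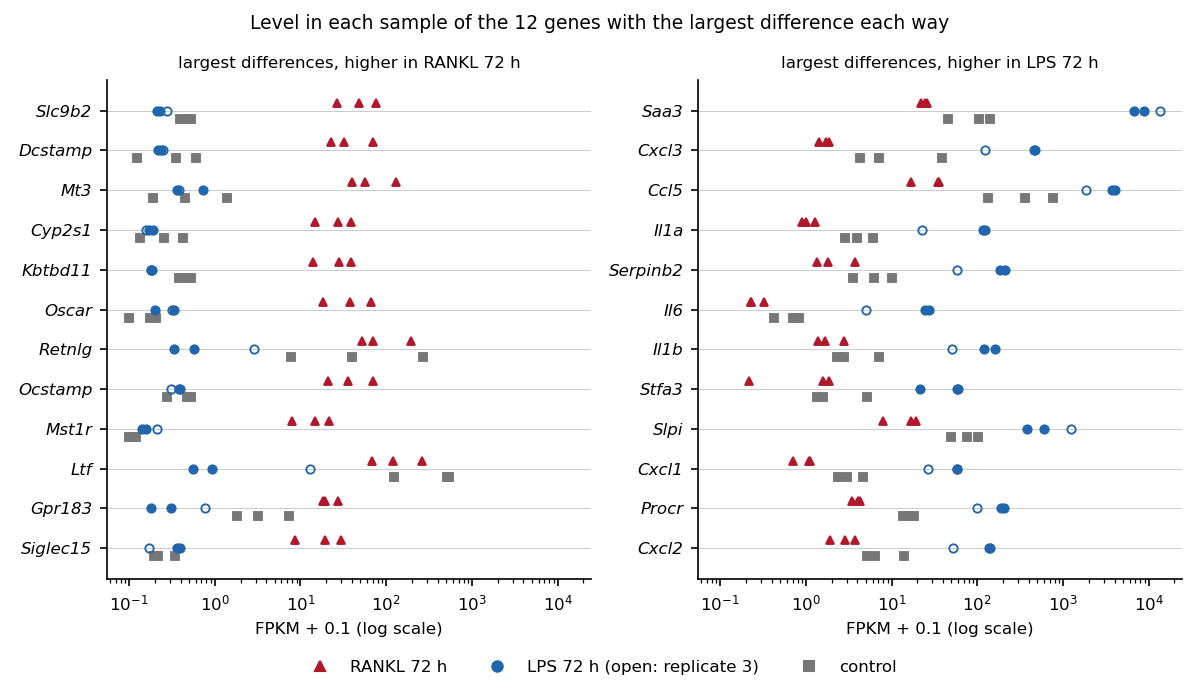
FPKM + 0.1 on a log axis is shown for each RANKL 72 h (triangles), LPS 72 h (circles, open for replicate 3) and control sample (squares), for the 12 genes with the largest difference in each direction among those that averaged 5 FPKM or more over the 6 samples. These genes were selected as called and without overlap between RANKL and LPS symbols. For *Cxcl3* and *Il6* the open circle lies nearest to the RANKL samples.

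For 4 of the 6 genes at the top of both lists the RefSeq promoter table (GRCm38.p6) holds a sequence. The 250 bases before the start are printed below to show the region from which these genes, at the ends of the comparison, are transcribed. Capitals mark matches on either strand to GGAAA, the core that NFAT binds, to TTGCNNAA, bound by C/EBP, and to the TATAAA of the TATA box. They also mark AP-1 letters (TGA followed after any base by TCA) and the interferon response element, which is read here as 2 copies of GAAA set apart by any 2 bases. The NF-κB letters were a GGG that precedes TTTCC with any 2 bases in between. The NF-κB letters contain GGAAA on the opposite strand. The promoters are, on the plus strand, those of *Slc9b2* at chr3:135307450-135307699, *Mt3* at chr8:94152357-94152606 and *Cxcl3* at chr5:90785851-90786100, and, on the minus strand, that of *Saa3* at chr7:46715677-46715926.
Slc9b2: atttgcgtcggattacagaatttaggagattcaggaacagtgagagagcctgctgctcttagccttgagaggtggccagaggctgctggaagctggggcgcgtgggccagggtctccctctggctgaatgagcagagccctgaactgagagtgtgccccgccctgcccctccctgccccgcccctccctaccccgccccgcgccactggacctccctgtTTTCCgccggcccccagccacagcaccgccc
Mt3: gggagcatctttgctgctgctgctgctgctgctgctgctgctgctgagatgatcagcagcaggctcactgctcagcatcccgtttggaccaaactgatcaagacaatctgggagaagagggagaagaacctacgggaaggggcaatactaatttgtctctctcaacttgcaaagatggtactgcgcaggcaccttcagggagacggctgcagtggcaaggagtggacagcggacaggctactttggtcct
Saa3: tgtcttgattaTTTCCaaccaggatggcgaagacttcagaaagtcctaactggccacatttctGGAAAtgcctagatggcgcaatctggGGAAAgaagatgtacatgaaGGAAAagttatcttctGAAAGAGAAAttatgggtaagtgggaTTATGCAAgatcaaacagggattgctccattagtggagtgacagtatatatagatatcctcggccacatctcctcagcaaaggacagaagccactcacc
Cxcl3: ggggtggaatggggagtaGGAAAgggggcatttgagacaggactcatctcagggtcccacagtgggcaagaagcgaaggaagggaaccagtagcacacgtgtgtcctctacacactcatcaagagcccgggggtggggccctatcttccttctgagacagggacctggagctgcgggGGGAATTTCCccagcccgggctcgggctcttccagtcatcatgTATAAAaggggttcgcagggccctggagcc

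The *Slc9b2* promoter held 1 match, to GGAAA, and the *Mt3* promoter held none of these letters in this window. The *Saa3* promoter held 4 matches to GGAAA, 1 to the C/EBP letters and 1 to the interferon response letters. The *Cxcl3* promoter held 2 matches to GGAAA, of which 1 lies inside the NF-κB letters found from 73 to 64 bases before the start, and the TATA letters from 30 to 25 bases before it. Its only other match among the letters searched was an E-box, CACGTG, from 155 to 150 bases before the start, which is not in capitals. A match describes letters and not a bound site. Over the 8973 tested genes with a promoter in the table, GGAAA was present in 54.5%, the AP-1 letters in 4.67%, the NF-κB letters in 1.47%, the C/EBP letters in 7.87%, the interferon response letters in 2.92%, the TATA letters in 6.77%, the E-box in 8.17% and the letters of E2F in 0.791%. Among the 1852 such genes called higher in RANKL the shares were 53.4%, 4.21%, 1.13%, 7.34%, 2.48%, 6.05%, 7.51% and 0.918% in the same order. Among the 1015 called higher in LPS they were 58.5%, 6.60%, 2.07%, 10.2%, 6.31%, 9.46%, 9.95% and 0.394%. The promoters of the genes higher in LPS had a median of 57.2% G and C, against 60.4% for those higher in RANKL and 59.6% for all.

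Genes with which the mature osteoclast attaches to bone, acidifies it and digests it were higher in RANKL. Of 20 tested osteoclast effector genes, 14 were called higher in RANKL, with a median difference of 2.17 over the 20, against 20.8% of genes and a median of 0.11 over all genes tested. This and the other gene lists were written with earlier results of these data known, so their counts are descriptive. *Ctsk*, the collagen-degrading cathepsin K, was at 987, 532 and 1661 FPKM under RANKL, 156, 74.0 and 34.6 FPKM under LPS and 32.9, 15.5 and 23.5 FPKM in control, with a difference between RANKL and LPS of 3.69 (SE 0.59, adjusted p = 0.00352) that was 3.15 without LPS replicate 3. *Mmp9*, a gelatinase, was at 1245, 719 and 2394 FPKM under RANKL and 66.9, 70.5 and 109 FPKM under LPS (difference 4.01, SE 0.42, adjusted p = 0.000861). *Acp5*, the tartrate-resistant acid phosphatase by which osteoclasts are stained, was at 600.1, 293 and 945 FPKM under RANKL and 86.7, 67.5 and 148 FPKM under LPS (difference 2.53, SE 0.45, adjusted p = 0.00539). The RANKL samples shared an order in these genes, with replicate 3 highest and replicate 2 lowest. *Car2*, the carbonic anhydrase that supplies protons (3.53), *Slc4a2*, the exchanger that removes bicarbonate (2.10), and the integrin subunit *Itgb3* (3.41) were higher in RANKL as well. *Calcr*, the calcitonin receptor, was at 3.63, 1.79 and 6.36 FPKM under RANKL and rested on 2 fragments in all 3 LPS samples together against 934 under RANKL, a ratio of 479 with a 95% exact interval of 132 to 3964 that covers counting error only. *Ckb*, brain-type creatine kinase, was at 502, 359 and 948 FPKM under RANKL and at 21.4, 41.6 and 144 FPKM under LPS, highest in the third sample, so that its difference of 3.46 (SE 0.67, adjusted p = 0.00734) was 4.21 without LPS replicate 3.

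The acid-secretion genes that are used by many cells did not follow this pattern. *Tcirg1*, the a3 subunit that directs the proton pump to the ruffled border, was at 216, 180.3 and 239 FPKM under RANKL and 260.2, 235 and 146 FPKM under LPS (difference 0.02, SE 0.24, adjusted p = 0.95), and *Clcn7*, the chloride-proton exchanger of the same membrane, at 70.5, 64.0 and 92.8 FPKM under RANKL and 116, 112 and 64.3 FPKM under LPS (difference -0.33, adjusted p = 0.338). Without LPS replicate 3 *Clcn7* was called higher in LPS, at -0.61. Of 25 listed subunits of the vacuolar proton pump 19 passed the filter, and their median difference was 0.10, which became -0.04 with samples centred on their median gene. The calls were *Atp6v0d2* (2.24), *Atp6v1a* (0.61) and *Atp6v0a1* (0.61) higher in RANKL and *Atp6v0a2* (-0.80) higher in LPS. As shares these were 15.8% and 5.26%, below the 20.8% and 11.2% of all genes. *Atp6v0d2*, the d2 subunit that osteoclasts use, was at 151, 76.1 and 167 FPKM under RANKL and 42.6, 40.1 and 10.6 FPKM under LPS (SE 0.56, adjusted p = 0.0187). The value of LPS replicate 3 was the lowest of the group, so the difference was 1.59 without that sample, and the call was lost without RANKL replicate 1 or 3. *Atp6v0d1*, the d1 subunit found in most cells, was at 101, 106 and 128 FPKM under RANKL and 132, 132 and 105 FPKM under LPS and was not called (difference -0.14, adjusted p = 0.490). *Atp6v1a* and *Atp6v0a1* lost their calls when samples were centred on their median gene, and the first of them also without LPS replicate 3 (adjusted p = 0.0837). Among the 14 cathepsins tested 3 were higher in RANKL (21.4%, against 20.8% of all genes), namely *Ctsk*, *Ctse* (2.75) and *Ctsf* (1.73). Another 3 were higher in LPS (21.4%, against 11.2% of all genes), namely *Ctsh* (-1.79), *Ctsl* (-1.43) and *Ctsz* (-1.26). The lysosomal cathepsins *Ctsb* (-0.49), *Ctsd* (-0.34) and *Ctss* (-0.74), which act in most macrophages, were not called.

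Genes of fusion and of the ITAM-linked receptors that give the osteoclast its costimulatory signal were more often higher in RANKL. Of 15 tested, 8 were higher in RANKL (53.3%, against 20.8% of all genes) and 2 in LPS (13.3%, against 11.2%), with a median of 1.05. *Oscar*, an ITAM-linked collagen receptor, was at 37.5, 18.2 and 66.7 FPKM under RANKL and 0.102, 0.237 and 0.217 FPKM under LPS, and *Ocstamp* at 35.5, 21.1 and 69.5 FPKM under RANKL and 0.288, 0.298 and 0.205 FPKM under LPS. Those higher in LPS were *Adam8*, a metalloproteinase-disintegrin at 820.1, 789 and 1004 FPKM under LPS and 264, 346 and 303 FPKM under RANKL (difference -1.52), and *Fcer1g*, the FcRγ adaptor on which OSCAR depends (-0.74, called in 15 of 18 alternatives). The receptor and its adaptor thus differed in opposite directions.

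Among 24 tested factors of the RANK pathway 10 were higher in RANKL and 1, the inhibitor of DNA binding *Id2* (-1.10, called in 11 of 18 alternatives), was higher in LPS. As shares these were 41.7% and 4.17%, against 20.8% and 11.2% of all genes. The median was 0.31. *Tnfrsf11a*, encoding RANK itself, was at 24.1, 28.2 and 34.4 FPKM under RANKL and 8.43, 7.90 and 9.85 FPKM under LPS (difference 1.71, SE 0.17, adjusted p = 0.000693), and its control level of 14.7, 18.2 and 16.7 FPKM lay between the groups. *Nfatc1*, the master factor of osteoclast formation, was at 45.3, 25.2 and 62.2 FPKM under RANKL and 7.03, 6.45 and 6.81 FPKM under LPS, where the 3 samples were close to control at 6.24, 7.67 and 9.31 FPKM (difference 2.60, SE 0.30, adjusted p = 0.00114). The coactivator of mitochondrial genes *Ppargc1b* (2.98), the AP-1 partner *Jdp2* (2.94), the repressor *Prdm1*, encoding Blimp1 (1.76), the factor *Mitf* (1.39) and the NF-κB subunit *Nfkb2* (0.75) were higher in RANKL under all 18 alternatives. *Nfatc2* (1.34) was called in 11 of 18 and, without LPS replicate 3, lay at 1.77. Of 14 tested repressors of osteoclast formation 6 were higher in LPS (42.9%, against 11.2% of all genes), and the median of the 14 was -0.56. *Socs3*, an inhibitor of cytokine receptor signalling, was at 69.6, 79.6 and 62.5 FPKM under LPS and 4.68, 6.80 and 3.06 FPKM under RANKL (difference -3.90, SE 0.27, adjusted p = 0.000350). *Socs1* (-2.56), the inhibitors of DNA binding *Id1* (-2.69) and *Id3* (-0.92), and the myeloid factor *Irf8* (-0.71) were also higher in LPS. *Rcan1*, an inhibitor of calcineurin and a target of NFAT, was the 1 repressor higher in RANKL (0.90), and its call was lost without LPS replicate 3 (adjusted p = 0.0536). *Irf8* was called in 16 of 18 alternatives.

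Of 10 tested coupling factors, by which osteoclasts signal to osteoblasts, 3 were higher in RANKL and 1 in LPS (median 0.84), against 20.8% and 11.2% of all genes. *Pdgfb*, a growth factor subunit, was at 11.4, 10.7 and 16.5 FPKM under RANKL and 0.610, 1.24 and 0.774 FPKM under LPS (difference 3.76, SE 0.30, adjusted p = 0.000436), and *Sema4d*, a semaphorin, at 73.6, 69.2 and 91.8 FPKM under RANKL and 16.6, 23.9 and 28.7 FPKM under LPS (difference 1.78). *Cthrc1*, a collagen triple helix repeat protein, was at 31.2, 7.86 and 6.08 FPKM under RANKL and 0.565, 0.272 and 2.73 FPKM under LPS, with a difference of 3.70 and of 4.54 without LPS replicate 3, and followed the order of the stromal markers described below. *C3*, complement component 3, was higher in LPS (-1.35).

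**Figure D3:**
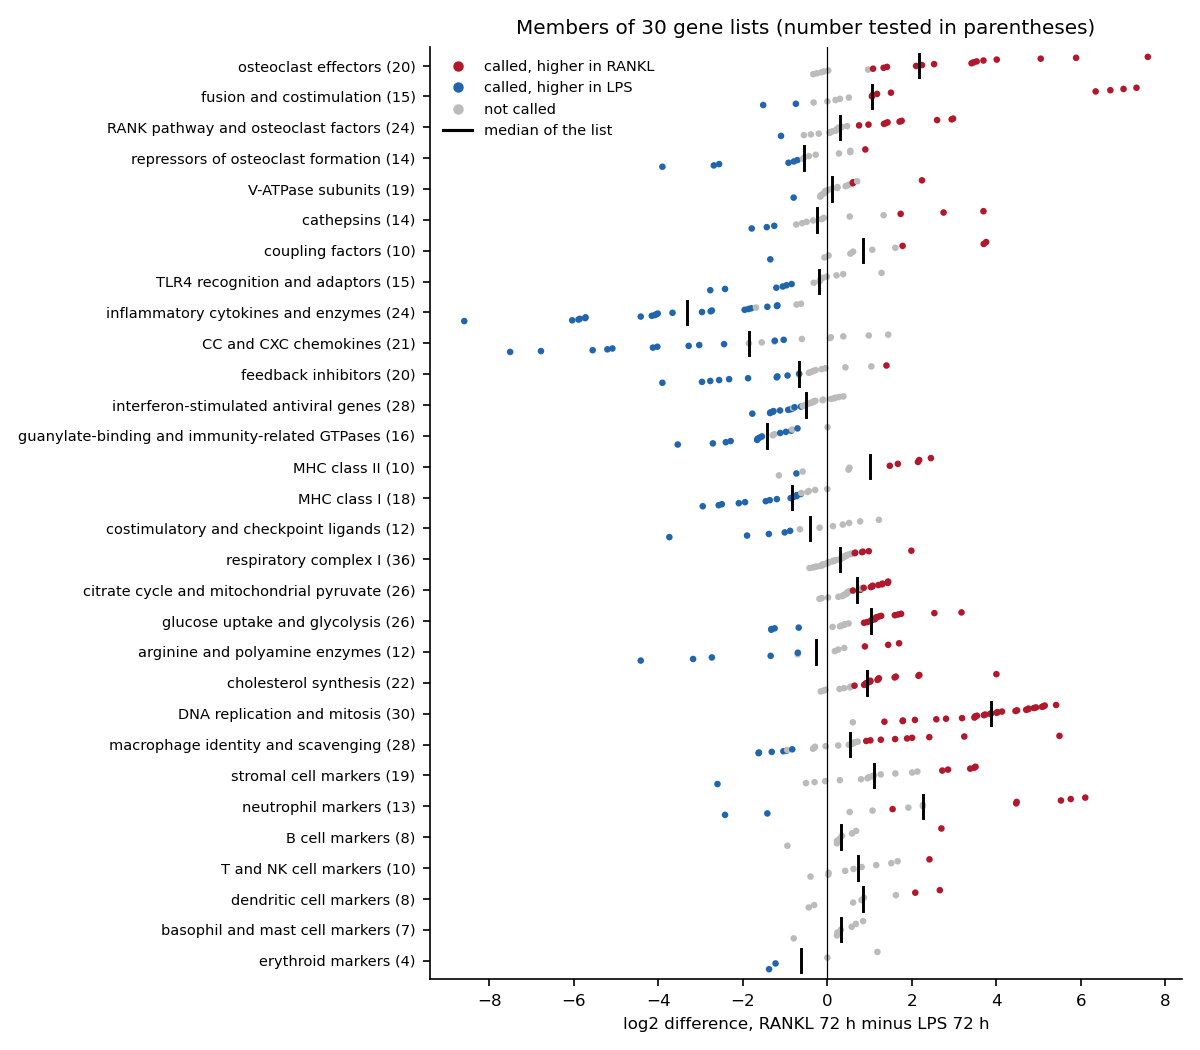
The x axis gives the log2 difference of RANKL 72 h minus LPS 72 h, and each row is a gene list whose tested members are points, red when called higher in RANKL, blue when called higher in LPS and grey when not called. Black lines mark list medians, which run from -3.31 for inflammatory cytokines and enzymes to 3.86 for DNA replication and mitosis.

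Some of the genes with which macrophages sense LPS were higher in LPS. Of 15 tested genes of LPS recognition 6 were higher in LPS (40%, against 11.2% of all genes, median -0.19). *Cd14*, the receptor that hands LPS to TLR4, was at 289, 247 and 340.4 FPKM under LPS and 53.9, 59.8 and 48.8 FPKM under RANKL (difference -2.42, SE 0.15, adjusted p = 0.000269). *Tlr4* itself was at 16.0, 14.9 and 14.5 FPKM under LPS and 12.7, 14.9 and 12.3 FPKM under RANKL and was not called (difference -0.19, adjusted p = 0.294). The adaptor *Myd88* (-0.97), the kinase *Irak2* (-1.21), *Ly96*, encoding MD-2 (-1.06), and the receptor *Tlr2* (-0.85, adjusted p = 0.0590 without LPS replicate 3) were higher in LPS, as was *Irak3*, the kinase-dead IRAK-M that restrains this pathway, at 45.8, 52.3 and 75.2 FPKM under LPS and 8.50, 8.48 and 7.64 FPKM under RANKL (difference -2.77, SE 0.19, adjusted p = 0.000340). *Irak3* was highest in the third LPS sample.

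Of 24 tested inflammatory cytokines and enzymes 21 were higher in LPS, with a median difference of -3.31, against 11.2% of all genes. *Il1b*, encoding interleukin-1β, was at 159, 118 and 50.3 FPKM under LPS and 2.70, 1.27 and 1.59 FPKM under RANKL, and *Il6* was at 27.1, 24.2 and 4.92 FPKM under LPS and 0.224, 0.128 and 0.130 FPKM under RANKL. *Tnf* was at 55.0, 78.2 and 41.1 FPKM under LPS and 6.53, 9.08 and 9.26 FPKM under RANKL (difference -2.76, SE 0.25, adjusted p = 0.000575). *Nos2*, the inducible nitric oxide synthase, was at 31.9, 99.2 and 31.9 FPKM under LPS and 2.68, 1.54 and 2.20 FPKM under RANKL (difference -4.42, SE 0.45, adjusted p = 0.000790). For *Il1b* and *Il6* the third LPS sample was the lowest of the group and for *Nos2* it equalled replicate 1. *Acod1*, which makes itaconate (-4.15), *Ptgs2*, the inducible cyclooxygenase (-4.01), and *Csf3*, encoding G-CSF (-5.89), were higher in LPS as well. *Csf3* rested on 6 fragments in the 3 RANKL samples together against 1555 under LPS, a ratio of 252 with a 95% exact interval of 116 to 689. *Il12a*, which encodes a subunit of interleukin-12, was at 13.1, 9.28 and 1.86 FPKM under LPS and 0, 0.0623 and 0 FPKM under RANKL (difference -5.73, and -6.56 without LPS replicate 3). The 3 members not called were *Il18* (-0.62), *Il27* (-0.73) and *Il12b*, which was at 2.92, 3.26 and 0.1 FPKM under LPS and 0.469, 0.662 and 0.0395 FPKM under RANKL and was called in 3 of 18 alternatives, including the fit without LPS replicate 3 (-3.02).

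Of 21 tested CC and CXC chemokines 12 were higher in LPS (57.1%, against 11.2% of all genes, median -1.86). *Ccl2*, which recruits monocytes, was at 766, 1304 and 1173 FPKM under LPS and 29.6, 91.6 and 80.6 FPKM under RANKL (difference -4.13, SE 0.43, adjusted p = 0.000855). *Ccl3* (-4.02) and *Ccl4* (-2.44), which attract macrophages and other leukocytes, were also higher in LPS. Control cells held *Ccl2* at 858, 948 and 619 FPKM, close to the LPS samples and above the RANKL samples. *Cxcl10*, an interferon-induced chemokine, was not called at 72 h (difference 1.44, adjusted p = 0.132). Feedback inhibitors of inflammatory signalling were higher in LPS in 10 of 20 cases and in RANKL in 1 (median -0.67). As shares these were 50% and 5%, against 11.2% and 20.8% of all genes. Those higher in LPS included *Il1rn*, the antagonist of the interleukin-1 receptor, at 183, 246 and 63.4 FPKM under LPS and 15.3, 28.4 and 13.6 FPKM under RANKL, and the anti-inflammatory cytokine *Il10* (-1.18, called in 14 of 18 alternatives). The member higher in RANKL was *Tnip3* (1.4), whose call was lost without LPS replicate 3 (adjusted p = 0.0621).

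Interferon-stimulated genes were higher in LPS in part. Of 28 tested antiviral genes 11 were higher in LPS (39.3%, against 11.2% of all genes, median -0.51). *Irf7*, the factor that amplifies the interferon response, was at 684, 773 and 645 FPKM under LPS and 186, 252 and 182 FPKM under RANKL (difference -1.78, SE 0.18, adjusted p = 0.000712). The control samples held *Irf7* at 1379.6, 1068 and 617 FPKM, above all RANKL samples, and the first and second of them also above all LPS samples. The mean log2 level of the antiviral list was 7.29, 6.73 and 6.03 in control. It was 5.12, 5.74 and 5.38 under LPS and 4.72, 5.10 and 4.71 under RANKL, so both groups lay below control. *Ifit1* was at 24, 64.1 and 32.6 FPKM under LPS and 12.3, 18.4 and 13.3 FPKM under RANKL (-1.35, called in 14 of 18 alternatives), with control at 189.9, 85.3 and 52.1 FPKM, and *Rsad2*, encoding viperin, at 41.4, 111 and 31.0 FPKM under LPS and 17.9, 25 and 18.8 FPKM under RANKL (-1.35, called in 9 of 18). *Bst2*, encoding tetherin (-1.28), and *Isg20*, an exonuclease (-1.29), differed in the same direction. *Isg15*, a ubiquitin-like modifier, was at 76.2, 169 and 108 FPKM under LPS and 38.9, 66.6 and 51.7 FPKM under RANKL (-1.12, called in 13 of 18 alternatives). Of 16 tested guanylate-binding and immunity-related GTPases, which attack intracellular pathogens, 12 were higher in LPS (75%, against 11.2% of all genes, median -1.42). Furthest from 0 among those above 1 FPKM were *Gbp4* (-3.54, and -4.16 without LPS replicate 3) and *Gbp6* (-2.71). *Gbp6* was at 29.0, 53.0 and 20.0 FPKM under LPS and 4.80, 6.35 and 3.41 FPKM under RANKL. Members of this family resemble each other closely, and fragments shared between them may have been divided.

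Genes of MHC class I were higher in LPS, whereas several of class II were higher in RANKL. Of 18 tested genes of MHC class I presentation 13 were higher in LPS (72.2%, against 11.2% of all genes, median -0.84). *H2-K1*, a classical heavy chain, was at 3201, 2626 and 2521 FPKM under LPS and 1163, 1121 and 785 FPKM under RANKL (difference -1.46, SE 0.25, adjusted p = 0.00470). *H2-D1*, the other classical heavy chain, differed by -1.36, and *B2m*, the light chain that they share, was at 8632, 8199 and 8125 FPKM under LPS and 3778, 3988 and 3181 FPKM under RANKL (-1.19, called in 11 of 18 alternatives). *H2-T22*, a nonclassical molecule, was at 474, 453 and 407 FPKM under LPS and 86.5, 92.5 and 60.6 FPKM under RANKL (difference -2.50). *H2-Q4*, *H2-Q6* and *H2-Q7*, near-identical genes between which fragments may have been divided, differed by -2.10, -2.95 and -2.57, the second of them by -3.57 without LPS replicate 3. Of 10 tested genes of MHC class II 5 were higher in RANKL and 1 in LPS (median 1.0). As shares these were 50% and 10%, against 20.8% and 11.2% of all genes. *Cd74*, the invariant chain, was at 99.7, 231 and 61.1 FPKM under RANKL and 45.5, 34.5 and 27.7 FPKM under LPS (difference 1.67, SE 0.45, adjusted p = 0.0251), and *H2-Aa* at 24.5, 73.9 and 10.4 FPKM under RANKL and 6.90, 6.13 and 4.68 FPKM under LPS (difference 2.17, SE 0.62, adjusted p = 0.0311). The RANKL samples spread widely in these genes, with replicate 2 highest and replicate 3 lowest. The mean log2 level of the dendritic cell list had the same order, at 0.53, 0.86 and -0.93 in the RANKL samples and -0.75, -0.79 and -0.97 in the LPS samples, and its part in the class II difference was not tested. Without LPS replicate 3 only 2 class II genes were higher in RANKL, and *Cd74* (adjusted p = 0.0554), *H2-Aa* (adjusted p = 0.0646) and *H2-Eb1* (adjusted p = 0.0644) were no longer called. *Ciita*, the activator of class II genes, stayed below 1 FPKM in each sample, at 0.551, 0.980 and 0.231 FPKM under RANKL and 0.00625, 0.0259 and 0.00667 FPKM under LPS (2.45). *H2-Ob*, a subunit of the DO chaperone, was also called (1.48), and with *Ciita* formed the pair called without LPS replicate 3. *H2-DMb1*, a peptide-loading chaperone, was higher in LPS (-0.73). Of 12 tested costimulatory and checkpoint ligands 5 were higher in LPS (41.7%, against 11.2% of all genes, median -0.42). *Cd274*, encoding PD-L1, was at 383, 443 and 140.2 FPKM under LPS and 23.3, 23.5 and 18 FPKM under RANKL (difference -3.74, SE 0.41, adjusted p = 0.000948), with the third LPS sample lowest of its group. *Cd86* (-1.90), *Cd80* (-1.01), *Cd40* (-1.38, called in 12 of 18 alternatives) and *Tnfsf9* (-0.88) were the others.

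Many genes of mitochondrial and glycolytic metabolism were higher in RANKL. Of 26 tested genes of the citrate cycle and mitochondrial pyruvate use 13 were higher in RANKL (50%, against 20.8% of all genes, median 0.69). *Idh3a*, a subunit of isocitrate dehydrogenase, was at 35.8, 36.4 and 60.2 FPKM under RANKL and 16.3, 14.9 and 16.0 FPKM under LPS (difference 1.44, SE 0.21, adjusted p = 0.00244), and *Fh1*, fumarate hydratase, at 40.0, 43.4 and 58.2 FPKM under RANKL and 15.8, 17.1 and 18.7 FPKM under LPS (difference 1.43). *Cs*, citrate synthase, was at 105, 108 and 172 FPKM under RANKL and 52.0, 55.7 and 73.8 FPKM under LPS (difference 1.07). *Suclg2*, a subunit of succinyl-CoA synthetase (1.43), and *Idh2*, the mitochondrial NADP-dependent isocitrate dehydrogenase (1.30), were higher in RANKL as well. Of 36 tested subunits of respiratory complex I 6 were higher in RANKL, which is no larger a share than the 20.8% of all genes, and the median was 0.30. *Ndufs8* differed most among them, at 59.4, 62.0 and 90.0 FPKM under RANKL and 14.3, 16.0 and 22.9 FPKM under LPS (difference 1.99, SE 0.23, adjusted p = 0.00108), where LPS lay below the control samples at 51.4, 64.3 and 65.6 FPKM. *Ndufs1* (0.98), *Ndufv3* (0.84) and *Ndufb11* (0.82) were also called under all 18 alternatives.

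Of 26 tested genes of glucose uptake and glycolysis 16 were higher in RANKL and 4 in LPS (median 1.02). As shares these were 61.5% and 15.4%, against 20.8% and 11.2% of all genes. *Aldoc*, an aldolase, was at 29.2, 26.5 and 31.0 FPKM under RANKL and 1.67, 2.47 and 7.16 FPKM under LPS (difference 3.17, SE 0.47, adjusted p = 0.00262, and 3.76 without LPS replicate 3). *Pdk1*, the kinase that holds pyruvate back from the mitochondria, was at 45.6, 39.3 and 50.2 FPKM under RANKL and 5.94, 7.29 and 10.4 FPKM under LPS (difference 2.53), and *Pgk1*, phosphoglycerate kinase, at 811, 827 and 982 FPKM under RANKL and 227, 276 and 379.9 FPKM under LPS (difference 1.60). The glucose transporter *Slc2a1* was at 78.2, 73.7 and 91.4 FPKM under RANKL and 56.1, 70.6 and 58.3 FPKM under LPS and was not called (difference 0.40, adjusted p = 0.0596). The 4 genes higher in LPS were *Pfkfb3*, which makes the activator of phosphofructokinase (-1.32), the hexokinase *Hk3* (-1.32), the monocarboxylate transporter *Slc16a1* (-1.25) and the transporter *Slc2a6* (-0.68, called in 8 of 18 alternatives). Of 12 tested genes of arginine and polyamine metabolism 5 were higher in LPS (41.7%, against 11.2% of all genes). In RANKL 3 were higher, a share of 25% that is near the 20.8% of all genes. Besides *Nos2*, arginase *Arg2* was at 17.9, 17.2 and 14.3 FPKM under LPS and 3.97, 1.24 and 1.01 FPKM under RANKL (difference -3.18, SE 0.46, adjusted p = 0.00245), and the arginine transporter *Slc7a2* (-2.73) and ornithine decarboxylase *Odc1* (-1.34) were higher in LPS. Spermine synthase *Sms* (1.70), spermidine synthase *Srm* (0.89) and the transporter *Slc7a1* (1.44, called in 14 of 18 alternatives) were higher in RANKL.

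Cholesterol synthesis was higher in RANKL along most of the pathway. Of 22 tested genes 15 were called (68.2%, against 20.8% of all genes, median 0.94). *Hmgcs1*, an enzyme early in the pathway, was at 32.0, 35.3 and 34.9 FPKM under RANKL and 9.85, 9.98 and 13.5 FPKM under LPS (difference 1.62, SE 0.15, adjusted p = 0.000641), and *Fdps*, the enzyme that nitrogen-containing bisphosphonates inhibit, at 39.2, 63.7 and 53.9 FPKM under RANKL and 9.90, 8.04 and 18.7 FPKM under LPS (difference 2.15). *Idi1*, an isomerase of the same segment, differed by 2.18.

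The most uniform list was that of DNA replication and mitosis, in which 29 of 30 tested genes were higher in RANKL. That is 96.7%, against 20.8% of all genes, and the list median was 3.86. *Ccna2*, cyclin A2, was at 34.1, 50.5 and 46.1 FPKM under RANKL and 0.461, 0.433 and 3.37 FPKM under LPS (difference 5.41, SE 0.68, adjusted p = 0.00148, and 6.30 without LPS replicate 3). *Mki67*, encoding the proliferation antigen Ki-67, was at 37.8, 41.7 and 37.8 FPKM under RANKL and 1.27, 2.16 and 4.58 FPKM under LPS (difference 4.01, SE 0.40, adjusted p = 0.000732), and *Top2a*, topoisomerase II, at 58.7, 82.6 and 77.8 FPKM under RANKL and 1.21, 1.33 and 7.73 FPKM under LPS (difference 4.89, and 5.73 without LPS replicate 3). The mitotic genes *Bub1* (5.14), *Ccnb1* (5.12) and *Cdk1* (3.48) and thymidine kinase *Tk1* (5.08) differed in the same direction under all 18 alternatives, and without LPS replicate 3 *Bub1* was at 6.04, *Ccnb1* at 6.14 and *Tk1* at 5.77. In *Ccna2*, *Mki67* and *Top2a* the control samples, with *Mki67* at 14.6, 17.1 and 31.1 FPKM, were above the LPS samples and below the RANKL samples, and the third LPS sample was the highest of its group. Without that sample the list median was 4.36. *Pcna*, the sliding clamp that also serves DNA repair, was the 1 member not called, at 135, 278 and 194 FPKM under RANKL and 146, 138 and 103 FPKM under LPS (difference 0.60, adjusted p = 0.119). In bulk samples a smaller number of cycling cells and less of these transcripts per cell cannot be told apart.

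**Figure D4:**
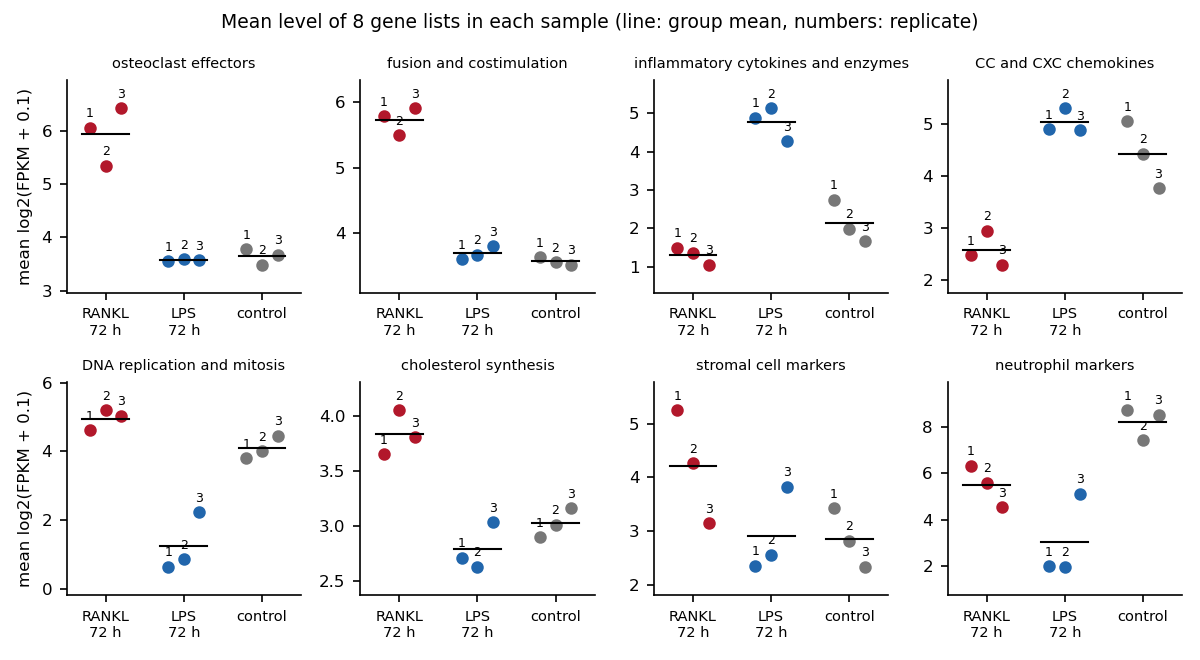
The y axis gives the mean log2(FPKM + 0.1) over the tested members of 8 gene lists in each RANKL 72 h, LPS 72 h and control sample, with replicate numbers above the points and group means as lines. The third LPS sample lies apart from the other two for inflammatory cytokines and enzymes, DNA replication, cholesterol synthesis, stromal and neutrophil markers. The y axes differ between panels and do not start at 0.

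Among 28 tested macrophage identity and scavenging genes 9 were higher in RANKL and 6 in LPS (median 0.54). As shares these were 32.1% and 21.4%, against 20.8% and 11.2% of all genes. With samples centred on their median gene 6 were higher in each group. *Cx3cr1*, the fractalkine receptor, was at 34.3, 26.9 and 19.0 FPKM under RANKL and 0.338, 0.647 and 0.494 FPKM under LPS, with control at 1.71, 2.40 and 2.05 FPKM (difference 5.49, SE 0.29, adjusted p = 0.000189). *Ccr2*, the receptor for CCL2, was at 23.5, 30.7 and 6.91 FPKM under RANKL and 1.28, 0.954 and 4.06 FPKM under LPS (difference 3.24, SE 0.68, adjusted p = 0.00954, and 3.84 without LPS replicate 3), so that receptor and ligand were higher in opposite groups. *Gas6*, a bridge between apoptotic cells and their receptors (1.89), was higher in RANKL. *Mrc1*, the mannose receptor, was at 161, 183 and 175 FPKM under RANKL and 22.5, 28.3 and 125 FPKM under LPS, where the third sample stood near the RANKL values, and its difference of 2.0 became 2.77 without that sample. *Timd4*, a receptor for phosphatidylserine (2.41), was higher in RANKL under all 18 alternatives, *Axl* (1.02) under 12 and *Apoe*, encoding apolipoprotein E (1.27), under 11, which did not include the fit without LPS replicate 3 (adjusted p = 0.0539). The Fcγ receptors *Fcgr1* (-1.62) and *Fcgr4* (-1.63) were higher in LPS. *Adgre1*, encoding F4/80, was at 356, 551 and 1102 FPKM under LPS and 290.4, 344 and 301 FPKM under RANKL and was not called (difference -0.95, adjusted p = 0.0864).

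Some markers of other cells differed between the groups and between replicates. Of 19 tested stromal markers 5 were higher in RANKL and 1 in LPS (median 1.10). As shares these were 26.3% and 5.26%, against 20.8% and 11.2% of all genes. Without LPS replicate 3 there were 9 and 1, and of all genes 23% and 16.7%. *Col1a1*, the main collagen of fibroblasts and osteoblasts, was at 692, 322 and 158 FPKM in the RANKL samples, 27.2, 24 and 188 FPKM in the LPS samples and 116, 67.5 and 54.2 FPKM in control, so the third LPS sample exceeded the third RANKL sample (difference 2.72, SE 0.85, adjusted p = 0.0410, and 3.68 without LPS replicate 3). *Col3a1* (3.48), *Col6a1* (3.51), *Col6a2* (3.38) and *Col1a2* (2.85) were also higher in RANKL, with 4.49, 4.13, 3.88 and 3.76 in the same order without LPS replicate 3, and *Dcn*, encoding decorin, was higher in LPS at 3.86, 6.14 and 3.26 FPKM against 0.705, 1.11 and 0.282 FPKM. The summed level of the stromal list was 2686, 1222 and 605 FPKM in the RANKL samples and 234, 293 and 828 FPKM in the LPS samples, and *Tcf21* was at 0 in all 6. Of 13 tested neutrophil markers 6 were higher in RANKL and 2 in LPS (median 2.26). Their shares were 46.2% and 15.4%, against the same 20.8% and 11.2%. Without LPS replicate 3 there were 10 and 1. *Ngp*, a granule protein, was at 1216, 590.3 and 264 FPKM under RANKL, 3.36, 2.84 and 117 FPKM under LPS and 3538, 1002 and 2993 FPKM in control (difference 5.76, SE 1.37, adjusted p = 0.0157, and 7.49 without LPS replicate 3). *Ltf*, encoding lactoferrin, was at 261, 122 and 68.9 FPKM under RANKL and 0.822, 0.460 and 13.0 FPKM under LPS, with control at 509, 123 and 539 FPKM, and *Retnlg*, a resistin-like protein of neutrophils that is not on the list, at 198, 70.9 and 52.4 FPKM under RANKL and 0.232, 0.479 and 2.80 FPKM under LPS, with control at 40.0, 7.64 and 269.6 FPKM. In *Col1a1* as in these granule genes, RANKL replicate 1 was the highest and replicate 3 the lowest of their group, and LPS replicate 3 was the highest of its group. *Camp* (5.53) and *Ly6g* (4.47) were higher in RANKL under all 18 alternatives, whereas *S100a9* (4.48) was called in 9 and *Cebpe* (1.54) in 12 of them. *Camp* was at 6.92, *Ly6g* at 5.26 and *S100a9* at 6.10 when LPS replicate 3 was left out. *Mmp8*, neutrophil collagenase (-2.42), and *Lcn2*, lipocalin 2 (-1.42), both also made by stimulated macrophages, were higher in LPS, and the call of *Lcn2* was lost without LPS replicate 3 (adjusted p = 0.0656). The summed level of the neutrophil list was 7962, 3942 and 1987 FPKM in the RANKL samples, 925, 973 and 2656 FPKM in the LPS samples and 25583, 8281 and 22621 FPKM in control.

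The B cell list gave 1 call of 8 tested genes, *Cd79b* (2.70, and 3.33 without LPS replicate 3), and the T and NK cell list 1 of 10, *Cd4* (2.42), both higher in RANKL. The T and NK cell list gave 3 when LPS replicate 3 was left out. The dendritic cell list gave 2 of 8, *Itgax* (2.66) and *Cd209a*, which was listed at 0 in each LPS sample. As shares these are 12.5%, 10% and 25%, against 20.8% of all genes. None of 7 basophil and mast cell genes was called in the limma fit, at an unadjusted p under 0.05 or with voom on recovered fragments. Of 4 tested erythroid genes the globins *Hba-a1* (-1.38) and *Hbb-bt* (-1.23) were higher in LPS and each lay below 0.4 FPKM in all 6 samples. Without LPS replicate 3 *Hba-a1* was not called (adjusted p = 0.0663), and 1 erythroid gene was higher in LPS and 1, *Epor*, in RANKL (1.58). The summed level of the T and NK cell list was 51.7, 49.3 and 18.9 FPKM under RANKL and 11.4, 11.9 and 29.4 FPKM under LPS. Whether cells of these kinds contributed to the other differences was not tested. Across the 30 lists, 18 list directions had no call. At an unadjusted p under 0.05, which with the folds called 36.9% of all genes, 4 members in 3 of them passed, and with voom 1 member in 1 of them.

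The difference at 72 h was then compared with that at 4 h, in a fit of the 12 samples given either stimulus for 4 h or 72 h. The change of the RANKL minus LPS difference was called for 5653 genes (48.1%), of which 1768 (15.1%) moved toward RANKL and 3885 (33.1%) toward LPS. With samples centred on their median gene these counts were 2726 and 2222, so the balance of directions depended on the scaling. Centring raised every change by 0.43. For 915 genes (7.79%) the change was called and the differences at both times were past the fold thresholds in opposite directions, 215 (1.83%) with higher levels in RANKL at 72 h and 700 (5.96%) with higher levels in LPS at 72 h. Among the osteoclast effectors 13 of 20 changed toward RANKL and 2 toward LPS, and the list median went from 0.27 at 4 h to 2.17 at 72 h. Inflammatory cytokines and enzymes had a median of -5.09 at 4 h and -3.31 at 72 h, with 13 of 24 changing toward RANKL. Costimulatory and checkpoint ligands went from -3.27 to -0.42 with 8 of 12 changing toward RANKL, feedback inhibitors from -3.27 to -0.67 with 14 of 20 changing toward RANKL, and DNA replication and mitosis from 0.81 to 3.86 with 27 of 30. Genes of MHC class I moved the other way, from -0.39 to -0.84, with 9 of 18 changing toward LPS, a move of the median about as large as the shift that centring makes.

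Some genes reversed between the times. *Cxcl10* was at 5227, 4885 and 4559 FPKM in the LPS samples at 4 h and at 102, 34.6 and 16.9 FPKM in the RANKL samples at 4 h, and by 72 h was at 4.56, 17.4 and 6.5 FPKM under LPS and 8.91, 46.0 and 25.8 FPKM under RANKL. Its difference changed by 8.40 (SE 0.96, adjusted p = 4.99e-05), while the difference at 72 h alone was not called. *Car2* was at 2.60, 1.5 and 1.44 FPKM in RANKL and 12.6, 11 and 6.78 FPKM in LPS at 4 h, so that at this time LPS was higher (difference -2.40), and the change to 72 h was 5.93 (SE 0.53, adjusted p = 1.19e-05). *Cebpa*, a myeloid lineage factor, was at 149.6, 173 and 181 FPKM in RANKL and 8.84, 9.28 and 14.4 FPKM in LPS at 4 h and at 46.5, 31.5 and 21.1 FPKM under RANKL and 119, 123 and 64.9 FPKM under LPS at 72 h, a change of -5.62 (SE 0.43, adjusted p = 4.94e-06). At 4 h the LPS samples were thus far below the RANKL samples in *Cebpa*, and at 72 h they were above them.

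**Figure D5:**
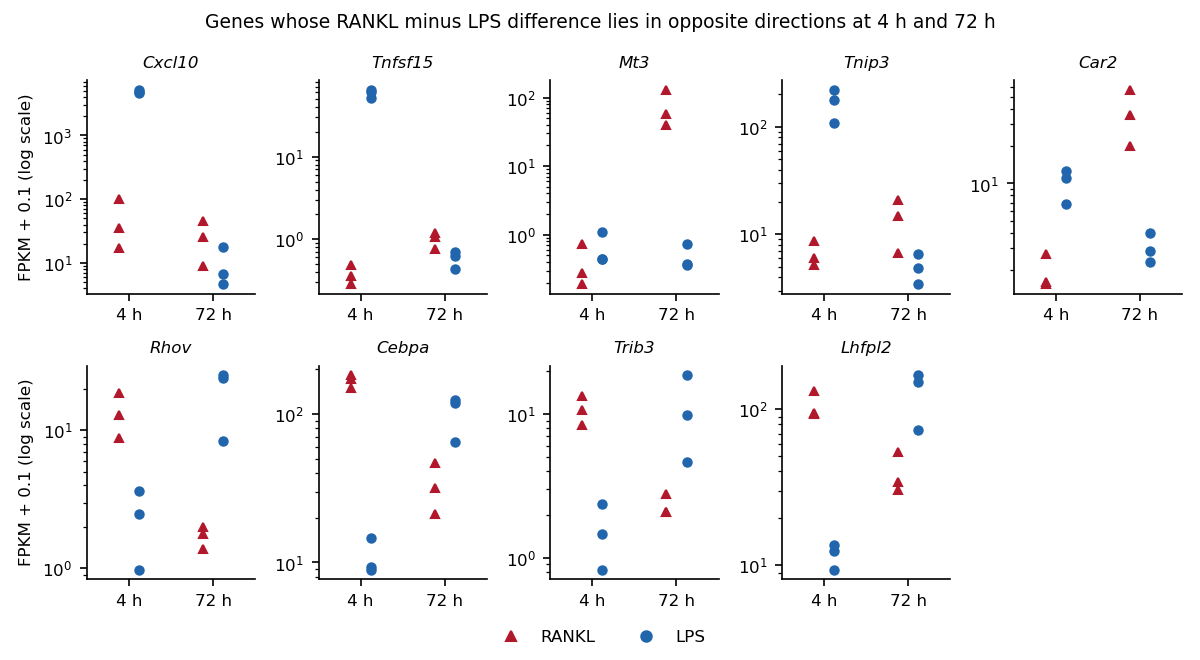
FPKM + 0.1 on a log axis is shown for the RANKL (triangles) and LPS (circles) samples at 4 h and 72 h, for 5 genes that changed toward RANKL and 4 that changed toward LPS, with the largest change of difference among those whose differences point in opposite directions at the 2 times. In the upper panels the difference at 4 h lies toward LPS, although that of *Mt3* at 4 h was not called. In the lower panels it lies toward RANKL, and the changes run from 8.40 for *Cxcl10* to -5.96 for *Rhov*.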

How the data were processed

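RNA-seq was done on mouse BMDMs in 5 groups of 3 samples. The deposited values are FPKM per gene, which the authors made from their reads before deposit. The submitters' processing notes name StringTie and the builds GRCm38.p4 and mm10, and versions and library strandedness are not given in the sources used here. The table holds 20089 complete genes in alphabetical order, of which 4453 were at 0 in every sample, and it ends at *Tti2* with 1 incomplete entry that was not used. Genes later in the alphabet were therefore not analysed, and shares of all genes refer to the tested genes up to *Tti2*. FPKM is relative to each sample's total, so that a few abundant genes can lower the others, and overlapping or antisense genes are uncertain. Whole fragments were recovered from the steps of the FPKM values for 14485 genes. A gene was kept only when all its values lay within 0.001 of a whole number, so that closeness does not test the recovery. In simulated fragments, 2995 of 2996 genes were recovered exactly.

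The study's methods call genes by a count-based test on an unadjusted p with these folds. As FPKM are not counts, limma 3.58.1 in R 4.3.3 (lmFit, eBayes with a trend) was used on log2(FPKM + 0.1), on the 6 samples at 72 h and 11743 genes averaging 0.1 FPKM or more over the 15 samples. Calls needed an adjusted p under 0.05 and a fold above 1.5 or below 0.66. The change from 4 h to 72 h was fitted on 12 samples. In simulated data with 11743 genes, 36 of 100 genes changed 2-fold, 85 of 100 changed 4-fold and 4 of 11543 unchanged genes were called. A far smaller share of genes changed there than was called in the data, so these rates need not hold for the reported fit. The alternatives were other pseudocounts, filters, scalings, variance models, samples in the fit, a replicate block, unadjusted p, leaving out each sample, and, chosen after seeing the data, limma voom on the recovered fragments.

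The 30 gene lists and the genes placed on them were chosen with earlier results of these data known. Genes were named by rule, as the 12 largest called differences each way averaging 5 FPKM or more without overlap of the groups, the 4 largest called members of each list averaging 1 FPKM or more, the cell markers, and the 5 largest changes each way among genes past the folds in opposite directions. Some genes that the rule selects are not reported here. Gene names that begin with Gm or end with Rik were left out. Named outside the rule, after their values were seen, were *H2-Ob*, *Tnfsf9*, *Epor*, *Tcirg1*, *Clcn7*, *Atp6v0d1*, *Pcna*, *Mitf*, *Nfatc2*, *Nfkb2*, *Tnfrsf11a*, *Tlr4*, *Myd88*, *Tlr2*, *Ctss*, *Ctsb*, *Ctsd*, *Ctse*, *Ctsz*, *Odc1*, *Il10*, *Tnf*, *Il12b*, *Il18*, *Il27*, *Il12a*, *Ciita*, *Irf8*, *Rcan1*, *Id2*, *Adam8*, *Fcer1g*, *Pfkfb3*, *Hk3*, *Slc16a1*, *Slc2a6*, *Slc2a1*, *Pgk1*, *Mki67*, *Top2a*, *Cdk1*, *B2m*, *H2-K1*, *H2-D1*, *Cs*, *Ckb*, *Slc4a2*, *Bst2*, *Isg15*, *Slc7a1*, *Srm*, *Ptgs2*, *Acod1*, *Ccl2*, *Ccl3*, *Ccl4*, *Fcgr4*, *Timd4*, *Apoe* and *Axl*. Intervals cover counting error only. Promoters are the first listed start of each gene. Analyses used Python 3.11.15, numpy 2.4.6, pandas 2.3.3, scipy 1.17.1 and matplotlib 3.10.9.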

Additional observations from a re-analysis of the deposited data

Results flagged for a closer look

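Of the 915 genes with a called change and differences past the folds in opposite directions at 4 h and 72 h, 9 of those with the largest changes are given here, and the change itself was tested in the limma fit of the 12 samples with adjustment over 11743 genes. Toward RANKL, the change was 8.40 for *Cxcl10*, 8.08 for *Tnfsf15*, a ligand of the TNF superfamily, 8.0 for *Mt3*, 6.05 for *Tnip3* and 5.93 for *Car2*. *Tnfsf15* was at 50.7, 64.8 and 60.2 FPKM in LPS and 0.391, 0.259 and 0.186 FPKM in RANKL at 4 h, and its difference at 72 h of 0.78 was not called (adjusted p = 0.0875). *Tnip3* was at 176, 221 and 109 FPKM in LPS and 5.08, 8.51 and 5.88 FPKM in RANKL at 4 h and at 3.36, 6.54 and 4.80 FPKM in LPS and 6.63, 20.7 and 14.6 FPKM in RANKL at 72 h. *Mt3* was at 0.997, 0.346 and 0.350 FPKM in LPS and 0.631, 0.181 and 0.0918 FPKM in RANKL at 4 h, where its difference of -0.83 was not called (adjusted p = 0.221), so that its reversal rests on an uncertain value.

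Toward LPS, the change was -5.96 for *Rhov*, a small GTPase, -5.62 for *Cebpa*, -4.95 for *Trib3*, a stress-induced pseudokinase, and -4.85 for *Lhfpl2*. *Rhov* was at 12.7, 8.65 and 18.6 FPKM in RANKL and 2.40, 0.879 and 3.53 FPKM in LPS at 4 h, and at 1.67, 1.28 and 1.90 FPKM in RANKL and 23.7, 24.9 and 8.27 FPKM in LPS at 72 h. *Trib3* was at 10.6, 8.35 and 13.2 FPKM in RANKL and 1.35, 0.727 and 2.25 FPKM in LPS at 4 h, and at 2.69, 2.0 and 1.98 FPKM in RANKL and 9.73, 18.4 and 4.52 FPKM in LPS at 72 h. *Lhfpl2* was at 94.1, 92.9 and 132 FPKM in RANKL and 12.3, 9.29 and 13.4 FPKM in LPS at 4 h, and at 53.0, 34.4 and 30.4 FPKM in RANKL and 165, 151 and 74.0 FPKM in LPS at 72 h. Without LPS replicate 3 at 72 h these 9 changes kept their direction, at -6.48 for *Rhov*, -5.46 for *Trib3* and 6.14 for *Car2*. The adjusted p-values of the changes ran from 4.55e-07 for *Tnfsf15* to 0.000107 for *Trib3*.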

How the results depend on the processing

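Among 172 called genes that the text names or the rule selects, 129 were called under all 18 alternatives and 0 changed direction. The number of genes higher in LPS, 1321 in the reported fit, was 2093 with array weights and ran from 791 to 1962 when each sample was left out, with 872 without LPS replicate 1, 791 without LPS replicate 2 and 1962 without LPS replicate 3. All calls together ran from 2538 to 4658 in those fits. Rescaling to equal sums gave 2710 genes higher in RANKL and 1033 higher in LPS. With samples centred on their median gene, the change from 4 h to 72 h was called toward RANKL for 2726 genes and toward LPS for 2222, in place of 1768 and 3885. Of genes not called, *Cd68* turned to 0.046 with equal sums, 0.0086 with array weights and, over the fits that left out a sample, ran from -0.088 to 0.012. *Tcirg1* turned to -0.12 after centring, -0.24 with array weights and, over the fits that left out a sample, ran from -0.23 to 0.19. Voom on recovered fragments called 2446 genes higher in RANKL and 1255 higher in LPS, of which 3582 were shared with the reported calls. The causes of these shifts were not tested.

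Samples of the same replicate number at 72 h did not deviate together, with correlations of -0.135, -0.021 and -0.229 over 9486 genes, and the labels do not say what a number marks. RANKL 72 h samples correlated with the same number at 0.162 to 0.251 in RANKL 4 h, 0.103 to 0.295 in LPS 4 h and 0.136 to 0.318 in control. Unlike numbers ran from -0.366 to 0.208, from -0.348 to 0.181 and from -0.391 to 0.265 in the same order. The ranges thus overlapped, although all same-number values with these groups were positive and unlike numbers had either sign. With a replicate block 2034 genes were higher in RANKL and 1189 higher in LPS, and the change from 4 h was called for 5739 genes. With 3 samples per group, some differences beyond 2-fold were not called. Of 2802 tested genes past 2-fold, 1718 were called higher in RANKL and 702 higher in LPS.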
